A study of Mus musculus with 27 samples.

Results

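Cancer-associated fibroblast (CAF) areas in MC38 liver metastases differed among themselves in how much fibrillar collagen RNA they held, and the most and least collagen-rich of them are compared here. Each region of interest (ROI) was scored by the mean level of Col1a1, Col1a2 and Col3a1. The classes were selected on this measured score, the 5 ROIs with the highest and the 5 with the lowest within each condition, which gave 10 collagen-high and 10 collagen-low ROIs of 27 in all. A level is log2(deposited value + 1) minus the median of that quantity over all 18855 targets of the same ROI, and a difference is the collagen-high minus the collagen-low level on this log2 scale. The ROIs came from C57BL6 mice, 2 months old at implantation, that had received MC38 mouse colorectal cancer cells through the portal vein. In 14 control ROIs the MC38 cells carried a nontargeting shRNA, and in 13 knockdown ROIs an shRNA silenced CMTM6 in the MC38 cells and not in the fibroblasts. Within an ROI, only desmin-stained area was taken for RNA. The metastases came from 3 mice per group, the labels do not tie an ROI to a mouse, and some ROIs therefore share one. ROI 26 of the knockdown group, with 76346 recovered reads, was left out, and 6 other ROIs with intermediate scores belong to neither class.

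Collagens I and III are the fibrillar collagens of scar and tumour stroma. Fibroblasts, and in the liver the hepatic stellate cells from which many CAFs derive, secrete them as procollagens. Proteases then trim the propeptides, small proteoglycans space the fibrils, and lysyl oxidases crosslink them. Stellate cells and their descendants also carry desmin and contractile proteins, and they secrete basement membrane proteins, growth factors and chemokines. A collected area holds more than one cell type, so fewer cells of a type and less RNA per cell cannot be told apart.

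The score, which the 3 collagen genes set and which is given as a description only, ran from 7.23 to 8.66 over the 20 ROIs. It was 8.12 ± 0.25 (SD, n = 5) in the control collagen-high and 7.41 ± 0.072 (SD, n = 5) in the control collagen-low ROIs. In the knockdown group it was 8.20 ± 0.28 (SD, n = 5) and 7.54 ± 0.24 (SD, n = 5). Col1a1 lay at 8.25 to 9.22 (median 8.59) in the 10 collagen-high and at 7.59 to 8.19 (median 7.90) in the 10 collagen-low ROIs. Col1a2 lay at 6.93 to 7.71 (median 7.15) and 6.33 to 7.01 (median 6.69). Col3a1 lay at 8.34 to 9.10 (median 8.49) and 7.45 to 8.24 (median 7.88). Only Col1a2 overlapped between the classes over both conditions.

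The classes are cut from a continuous range. In control the last ROI inside the high class, ROI 15, scored 7.8396 and the next one outside it, ROI 2, scored 7.8369. At the lower end ROI 3 was outside at 7.56 and ROI 10 inside at 7.52. In knockdown ROI 25 was the last inside the high class at 7.97 and ROI 27 the next at 7.93, while ROI 21 lay above the low class at 7.88 and ROI 20 in it at 7.74. The knockdown collagen-low ROIs are numbers 16 to 20 and the collagen-high ones 22 to 25 and 28, so class and ROI number cannot be told apart there. In control the 2 classes interleave, with ROIs 1, 7, 11, 13 and 15 high and 4, 5, 6, 8 and 10 low.

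**Figure D1:**
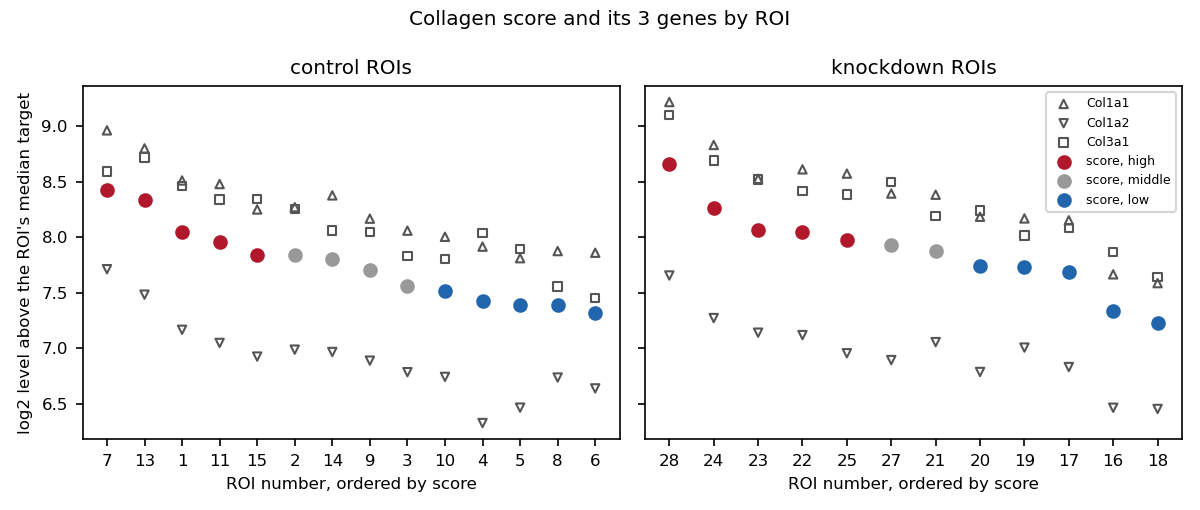
Collagen score and its 3 genes in each ROI of the 2 conditions, as log2 levels above the ROI's median target, ordered by score. Filled circles are the score, coloured by class, and open symbols are Col1a1, Col1a2 and Col3a1. The control cut between ROI 15 (7.8396) and ROI 2 (7.8369) falls in a continuous series.

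Whole-number reads were recovered from the deposited values, and depth differed between the classes in 1 condition. Control collagen-high ROIs held 1019143 to 2337223 reads and control collagen-low ROIs 659571 to 3269149. Knockdown collagen-high ROIs held 406002 to 1207891 reads and knockdown collagen-low ROIs 1138839 to 2776820. Log2 reads were lower in the high class by 0.17 in control (exact permutation test, two-sided p = 0.683) and by 1.07 in knockdown (exact p = 0.0397). Over both conditions the difference was -0.62 (exact permutation within conditions, p = 0.0565), and it passed 0.05 without control ROI 5 (p = 0.00479), control ROI 11 (p = 0.0338), knockdown ROI 19 (p = 0.0477) or knockdown ROI 20 (p = 0.0441). All p-values over ROIs given here are too small where ROIs share a mouse.

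Outside the 3 score genes, 55 of 18852 targets rose and 8 fell in collagen-high ROIs (limma with condition as covariate, Benjamini-Hochberg adjusted p under 0.05, p-values too small because ROIs share mice). These are 0.292% and 0.0424% of the targets tested. All 63 lay above background, and all 63 kept their sign in control alone and in knockdown alone. They were called on these same ROIs, so the kept sign is no separate support. The called rises ran from 0.41 to 1.48 with a median of 0.64, and the falls from -1.20 to -0.43, while the median over all targets was -0.03. Of all 18852 targets, 57.4% lay below 0. Of the 175 measured genes on the 7 matrix lists, 15 rose (8.57%) and none fell. Des is among the 55, but desmin staining chose the collected area, so its rise is no finding. The levels of the other genes use the same ROI medians as the score. With values as deposited, without centring, 97 targets rose and 22 fell, and all 63 were among them. The counts moved with single ROIs, from 24 rises and 1 fall without control ROI 13 to 93 rises and 25 falls without knockdown ROI 20, and 23 of the 63 passed in all 20 fits that left out 1 ROI.

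Adam12, a membrane metalloprotease of mesenchymal cells, had the smallest p. Its level in the control collagen-high ROIs was 2.50 in ROI 1, 2.72 in ROI 7, 2.87 in ROI 11, 2.72 in ROI 13 and 2.95 in ROI 15. In the control collagen-low ROIs it was 1.35 in ROI 4, 1.94 in ROI 5, 1.18 in ROI 6, 1.19 in ROI 8 and 1.63 in ROI 10. The control classes did not overlap. In the knockdown collagen-high ROIs it was 2.29 in ROI 22, 2.28 in ROI 23, 2.12 in ROI 24, 2.02 in ROI 25 and 3.28 in ROI 28. In the knockdown collagen-low ROIs it was 1.65 in ROI 16, 1.30 in ROI 17, 0.95 in ROI 18, 1.52 in ROI 19 and 2.05 in ROI 20. The knockdown classes overlapped only in that ROI 20 lay just above ROI 25. Adam12 rose by 1.10 ± 0.14 (SE), a 2.14-fold higher level, with a limma adjusted p of 0.000196, and it passed the test in each of the 20 fits that left out 1 ROI.

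The chains and enzymes that build collagen fibrils were the first group examined. Col5a2, a chain of the collagen V that starts collagen I fibrils, was at 5.02, 5.33, 5.05, 5.33 and 5.00 in control ROIs 1, 7, 11, 13 and 15. It was at 4.54, 4.42, 4.55, 4.51 and 4.48 in control ROIs 4, 5, 6, 8 and 10. Every control collagen-high ROI was above every control collagen-low one. In knockdown it was at 5.07, 4.83, 4.88, 4.61 and 5.64 in ROIs 22, 23, 24, 25 and 28 and at 4.09, 4.32, 3.75, 4.55 and 4.64 in ROIs 16 to 20. Col5a2 rose by 0.69 ± 0.11 (SE), with an adjusted p of 0.00325 in limma. It was the only called member of the 8 other fibrillar collagen genes, of which 7 had a difference above 0 (median 0.32). Col11a1 (0.62, adjusted p = 0.0706) and Col5a1 (0.44, adjusted p = 0.101) did not pass. None of 26 non-fibrillar collagen genes outside the basement membrane list passed, and their median difference was 0.15. Of these, 7 were higher at an unadjusted p under 0.05, against 4.16% of all targets.

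Among 30 genes of collagen processing and crosslinking, 3 rose and none fell, with a median of 0.13. Adamts2 cuts the amino-terminal propeptide off fibrillar procollagens. It lay at 3.82 to 4.17 (median 3.88) in the 10 collagen-high and 3.15 to 3.78 (median 3.39) in the 10 collagen-low ROIs, with no overlap over both conditions. Adamts2 rose by 0.52 ± 0.09 (SE, limma adjusted p = 0.00636). Lox, a lysyl oxidase that starts collagen crosslinks, lay at 3.14 to 3.92 (median 3.36) against 2.23 to 3.17 (median 2.84). Lox rose by 0.64 ± 0.11 (SE, adjusted p = 0.00714 in limma), and in knockdown its classes did not overlap. Loxl1, a second lysyl oxidase, rose by 0.46 ± 0.09 (SE, adjusted p = 0.0137 in limma). Bmp1, which removes the carboxy-terminal propeptide, had a difference of 0.45 and an adjusted p of 0.0658. Of 40 chaperone and secretion genes none passed, and their median was 0.04.

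Only 4 of 18852 targets (0.0212%) had all 5 collagen-high ROIs above all 5 collagen-low ROIs in both conditions, and no target had them all below. They were Adamts2, Plat, Igsf10 and Lgalsl, of which Igsf10 and Lgalsl are named because of this count and outside the naming rule. Plat encodes tissue plasminogen activator, a protease of fibrin clearance. Its control collagen-high ROIs reached down to 1.47 and its control collagen-low ROIs up to 1.46. It rose by 0.58 ± 0.12 (SE, limma adjusted p = 0.0203). Lgalsl, with an adjusted p of 0.0522, did not pass. For classes apart in 1 condition alone, as stated for several genes here, the share over all targets was not counted. Such a gap is therefore a description only.

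**Figure D2:**
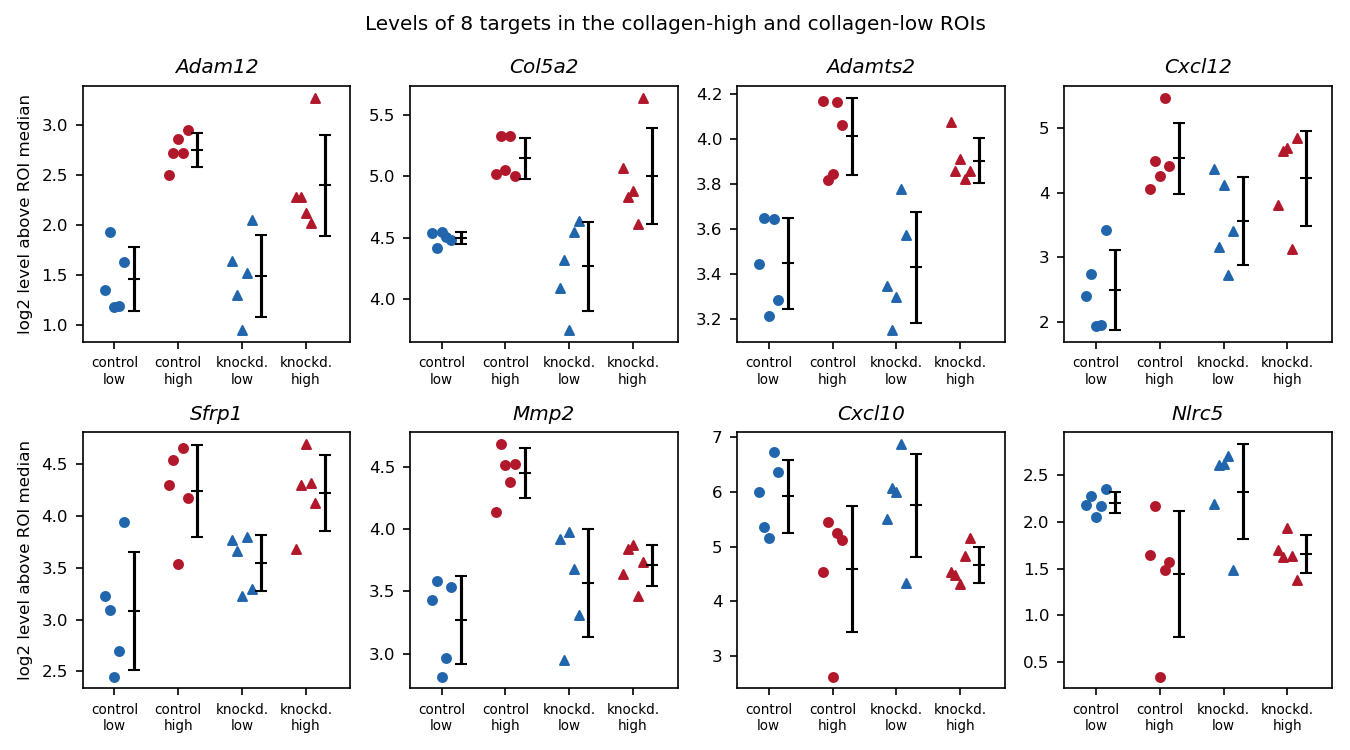
Levels of 8 targets above the ROI's median target (log2) in the 5 collagen-low (blue) and 5 collagen-high (red) ROIs of control (circles) and knockdown (triangles). The black dash with its bar is the mean ± SD of 5 ROIs. Adamts2 does not overlap in either condition, Mmp2 is apart in control alone, and for Cxcl10 1 control ROI lies at 2.62, under the others.

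Glycoproteins and proteases of the matrix made up a further group. Of 46 matrix glycoprotein genes 4 rose, 38 had a difference above 0 and the median was 0.26. The 4 are Mfap2, a microfibril protein of elastic fibres, Spon2, a secreted spondin, Dpt, a fibril-binding protein, and Sparc, a collagen-binding protein of remodelling tissue. Mfap2 lay at 0.51 to 2.17 (median 1.59) in collagen-high and 0.44 to 0.88 (median 0.79) in collagen-low ROIs and rose by 0.82 ± 0.14 (SE, adjusted p = 0.00636 in limma). Its high range reached down to 0.51 through knockdown ROI 25 alone, the shallowest of the 20 ROIs. Spon2 rose by 1.29 ± 0.25 (SE, adjusted p = 0.0154 in limma), from 0.36 to 1.77 at the medians. Dpt rose by 1.10 ± 0.24 (SE, adjusted p = 0.0260 in limma), with ranges of 1.73 to 3.36 and 0.06 to 2.55 that overlapped. Fn1, fibronectin, did not pass.

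Of 32 matrix proteases and inhibitors 4 rose and none fell, with a median of 0.29. Beside Adam12 and Plat these were Adamts12 (0.60) and Mmp2, a gelatinase (0.66 ± 0.15 SE, adjusted p = 0.0393 in limma). Of 12 small leucine-rich proteoglycans only Bgn rose, by 0.47 ± 0.10 (SE, adjusted p = 0.0241 in limma), with 5.58 to 6.12 in collagen-high and 5.01 to 5.64 in collagen-low ROIs. Lum (0.80, adjusted p = 0.0556) and Dcn (0.36, adjusted p = 0.124) did not pass, and Aspn lay the other way at -0.62 (adjusted p = 0.118). Of 21 basement membrane genes 2 rose. Col4a2, a collagen IV chain, rose by 0.63 ± 0.13 (SE, adjusted p = 0.0189 in limma) and Nid1, which links laminin to collagen IV, by 0.55 ± 0.12 (SE, adjusted p = 0.0276 in limma). Col4a1, the partner of Col4a2, had 0.52 and an adjusted p of 0.0551.

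**Figure D3:**
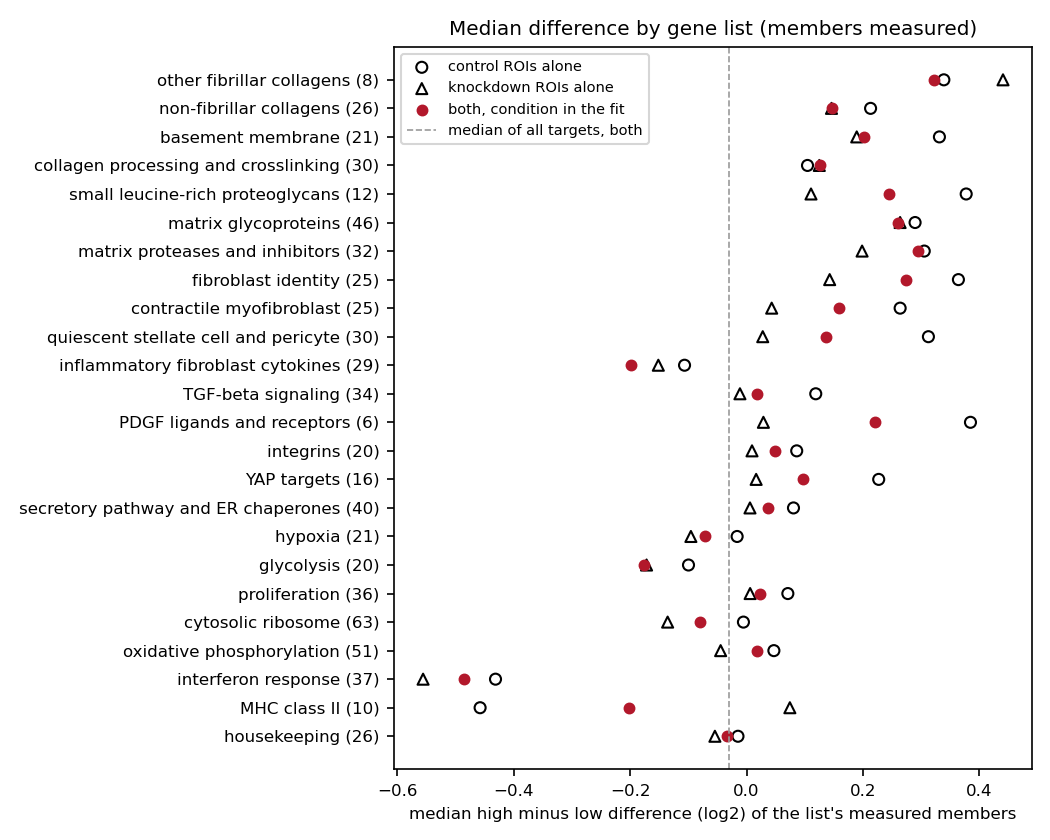
Median collagen-high minus collagen-low difference (log2) of each gene list, with the number of members measured, in control alone (open circles), knockdown alone (open triangles) and both with condition in the fit (red). The dashed line is the median of all targets, -0.03. The matrix lists lie to its right and the interferon-response list lies farthest to its left at -0.48.

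Some of the largest rises were in single genes for secreted signals and receptors. Cxcl12, the chemokine that binds CXCR4, was at 4.05, 4.49, 4.26, 5.47 and 4.40 in control ROIs 1, 7, 11, 13 and 15 and at 2.41, 2.75, 1.94, 1.96 and 3.43 in control ROIs 4, 5, 6, 8 and 10. In knockdown it was at 3.81, 4.64, 4.69, 3.13 and 4.85 in ROIs 22, 23, 24, 25 and 28 and at 4.37, 3.16, 4.12, 2.73 and 3.41 in ROIs 16 to 20. The control classes were apart. In knockdown only the collagen-low value of 2.73 lay under the range of the high class, and all other collagen-low values lay inside that range. Cxcl12 rose by 1.35 ± 0.25 (SE), 2.55-fold, with an adjusted p of 0.0111 in limma. It was the only member of 29 inflammatory fibroblast cytokine genes that passed. The median of that list was -0.20, and 18 members lay below 0, against 57.4% of all targets. At an unadjusted p under 0.05 in limma, 6 members were higher and 5 lower.

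Sfrp1, a secreted inhibitor of Wnt signaling, lay at 3.53 to 4.70 (median 4.30) in collagen-high and 2.45 to 3.94 (median 3.26) in collagen-low ROIs. It rose by 0.92 ± 0.16 (SE, adjusted p = 0.00636 in limma). The ligand Wnt4 rose by 0.85 ± 0.18 (SE, adjusted p = 0.0241 in limma). Slit3, a secreted ligand of Robo receptors, rose by 0.91 ± 0.16 (SE, adjusted p = 0.00678 in limma), and in control its 5 high ROIs lay between 3.54 and 3.67 and its low ones between 1.87 and 3.01. Lifr, a receptor chain for LIF, rose by 0.81 ± 0.17 (SE, adjusted p = 0.0241 in limma). The hormone gene Fgf23 had the highest difference of all called targets, 1.48 ± 0.32 (SE, adjusted p = 0.0271 in limma). Its collagen-high ROIs spanned 0.33 to 2.59 and its collagen-low ROIs -1.99 to 1.65, and in 7 of 20 fits that left out 1 ROI it did not pass.

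Of the 55 called rises, 34 were on none of the gene lists, and of the 8 called falls, 6 were on none. Cadm4, a cell adhesion molecule, rose by 1.21 ± 0.22 (SE, adjusted p = 0.00944 in limma), and Phldb2, which links adhesions to microtubules, by 0.79 ± 0.12 (SE, adjusted p = 0.00185 in limma). Phldb2 lay at 2.10 to 2.76 in collagen-high and 1.15 to 2.36 in collagen-low ROIs, where ROI 20 alone reached 2.36. Nfasc, a neural adhesion protein, rose by 0.80 ± 0.16 (SE, adjusted p = 0.0154 in limma), and Lgi2 by 0.91 ± 0.19 (SE, adjusted p = 0.0241 in limma). Ccdc80, a secreted matrix-binding protein, rose by 0.74 ± 0.12 (SE, adjusted p = 0.00325 in limma), from 3.15 to 4.10 in the low to 4.09 to 4.91 in the high class.

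Of 25 fibroblast identity genes 5 rose and none fell, with a median of 0.27. They were Islr, Loxl1, Dpt, Mmp2 and Cdh11, the cadherin of mesenchymal cells. The median of the list was 0.36 in control and 0.14 in knockdown. Its summed share of reads in control was 0.638% to 0.728% in collagen-high and 0.426% to 0.619% in collagen-low ROIs. In knockdown the shares were 0.618% to 0.687% and 0.537% to 0.646%. Islr lay at 1.37 to 2.37 (median 1.69) against 0.40 to 1.70 (median 1.05) and rose by 0.79 ± 0.15 (SE, adjusted p = 0.0103 in limma). Pdgfra, a platelet-derived growth factor receptor, had 0.58 and an adjusted p of 0.0775, and Pdgfrb had 0.35 and 0.263. Of 25 contractile genes Mylk, myosin light chain kinase, rose by 0.64 ± 0.14 (SE, adjusted p = 0.0334 in limma) beside Des. Acta2, smooth muscle actin, is named outside the rule because it is the usual CAF marker. It spanned 3.84 to 5.56 in collagen-high and 2.32 to 4.71 in collagen-low ROIs, a difference of 0.88 that did not pass (adjusted p = 0.127). In control the Acta2 ranges of 3.90 to 5.17 and 3.64 to 4.22 overlapped. Of 34 genes of TGF-beta signaling none passed (median 0.02), and of 16 YAP target genes only Crim1 rose, by 0.58 ± 0.12 (SE, adjusted p = 0.0189 in limma). Of 20 integrin genes none passed. Of 30 stellate cell and pericyte genes Cxcl12 alone rose (median 0.14).

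The promoters of 3 called genes are shown because GGAATG, the core letters that TEAD factors of the YAP pathway are known to bind, stands in them. RefSeq windows of GRCm38.p6, from 250 bases before to 50 after the start, were held for 41 of the 55 genes that rose. GGAATG, on either strand, was in a window of 11 of these 41 (26.8%), against 15.0% of the 14882 targets with a window. TGANTCA, the AP-1 core, was in 5 of 41 (12.2%, all targets 7.94%). Capitals mark the GGAATG match, read as CATTCC on the other strand in Mylk. Mfap2 is at chr4:141010174-141010473 (+), Nid1 at chr13:13437352-13437651 (+) and Mylk at chr16:34784700-34784999 (+). Another Mfap2 window, at chr4:141010431-141010730 (+), held no match and is not shown. A match describes the letters of a window and does not show a bound site.
Mfap2: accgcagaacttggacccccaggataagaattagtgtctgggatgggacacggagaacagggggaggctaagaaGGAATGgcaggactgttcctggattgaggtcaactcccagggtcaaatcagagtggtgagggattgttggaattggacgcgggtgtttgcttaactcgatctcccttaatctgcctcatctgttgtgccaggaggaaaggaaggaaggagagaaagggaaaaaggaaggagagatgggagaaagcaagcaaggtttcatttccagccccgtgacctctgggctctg
Nid1: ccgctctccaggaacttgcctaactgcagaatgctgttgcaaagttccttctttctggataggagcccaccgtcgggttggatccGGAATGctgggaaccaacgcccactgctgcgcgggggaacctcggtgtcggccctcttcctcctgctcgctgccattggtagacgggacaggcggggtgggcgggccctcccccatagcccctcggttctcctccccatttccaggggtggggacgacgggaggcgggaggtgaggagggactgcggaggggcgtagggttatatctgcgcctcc
Mylk: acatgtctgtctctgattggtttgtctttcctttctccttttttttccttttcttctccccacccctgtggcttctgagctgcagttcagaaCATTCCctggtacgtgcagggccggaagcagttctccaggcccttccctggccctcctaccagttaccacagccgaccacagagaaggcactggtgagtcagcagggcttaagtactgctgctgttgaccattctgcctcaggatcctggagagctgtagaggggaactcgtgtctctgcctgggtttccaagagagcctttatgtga

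The other direction was led by genes of the interferon response, by which cells answer interferons from infected or immune cells through STAT and IRF factors. Cxcl10, the chemokine that draws CXCR3-bearing T cells, was at 4.54, 5.44, 2.62, 5.25 and 5.12 in control ROIs 1, 7, 11, 13 and 15 and at 5.99, 5.35, 5.15, 6.73 and 6.36 in control ROIs 4, 5, 6, 8 and 10. In knockdown it was at 4.53, 4.49, 4.32, 4.83 and 5.16 in ROIs 22, 23, 24, 25 and 28 and at 5.50, 6.06, 6.00, 6.87 and 4.33 in ROIs 16 to 20. ROI 20 lay at the level of the high class, and the other 4 knockdown collagen-low ROIs lay above all 5 collagen-high ones. Cxcl10 fell by 1.20 ± 0.28 (SE), a 2.30-fold lower level, with a limma adjusted p of 0.0419. Without control ROI 11, its lowest value, the difference was -0.96 (adjusted p = 0.0455 in limma). Over the 20 fits that left out 1 ROI, Cxcl10 lay between -1.38 and -0.96 and passed in 8.

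Nlrc5, the transactivator of MHC class I genes, spanned 0.34 to 2.17 (median 1.63) in collagen-high and 1.49 to 2.71 (median 2.24) in collagen-low ROIs. It fell by 0.72 ± 0.16 (SE, adjusted p = 0.0290 in limma) and passed in 10 of these 20 fits. Oasl1, of the interferon-induced oligoadenylate synthetase-like family, fell by 0.89 ± 0.20 (SE, adjusted p = 0.0379 in limma), from 1.62 to 3.69 in the low to 1.04 to 2.93 in the high class, and passed in 6. The other 5 that fell were Pnpt1, a mitochondrial RNA exonuclease (-0.54), Naa25, a subunit of an amino-terminal acetyltransferase (-0.52), Taf5l (-0.50), Nampt, of NAD synthesis (-0.46), and Phgdh, the first enzyme of serine synthesis (-0.43). In knockdown, Taf5l and Phgdh lay below the low class in all 5 collagen-high ROIs.

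All 37 measured members of the interferon-response list lay below 0, with a median of -0.48, against -0.03 over all targets. Only Nlrc5 and Cxcl10 passed the test, and 30 of the 37 had an unadjusted p under 0.05, against 6.13% of all targets with a lower level. The members share ROIs and are not independent of each other. The median was -0.56 in knockdown alone. In control alone it was -0.43, and without control ROI 11 it was -0.14 with 31 of 37 below 0. Oasl2 (-0.65, adjusted p = 0.0762), the antiviral membrane protein Bst2 (-0.54, adjusted p = 0.0812), Rsad2 (-0.93, adjusted p = 0.117) and Isg15 (-0.61, adjusted p = 0.255) did not pass, and B2m had -0.15. Rsad2, Isg15 and B2m are named outside the rule as familiar members of the list. By ROI the mean level of the list was 3.02, 3.55, 1.78, 3.28 and 3.09 in control ROIs 1, 7, 11, 13 and 15 and 3.60, 3.02, 3.14, 3.71 and 3.57 in control ROIs 4, 5, 6, 8 and 10. In knockdown it was 2.79, 2.77, 2.76, 3.21 and 3.23 in ROIs 22, 23, 24, 25 and 28 and 3.28, 3.68, 3.63, 4.20 and 2.68 in ROIs 16 to 20. ROI 11 was far under the other control ROIs, and ROI 20 was again unlike the other knockdown collagen-low ROIs. In control, ROIs 1, 7, 13 and 15 of the high class lay inside the collagen-low range, and only ROI 11 was under it. Over both conditions without ROI 11 the median was -0.35, all 37 stayed below 0, and the same 2 genes passed.

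**Figure D4:**
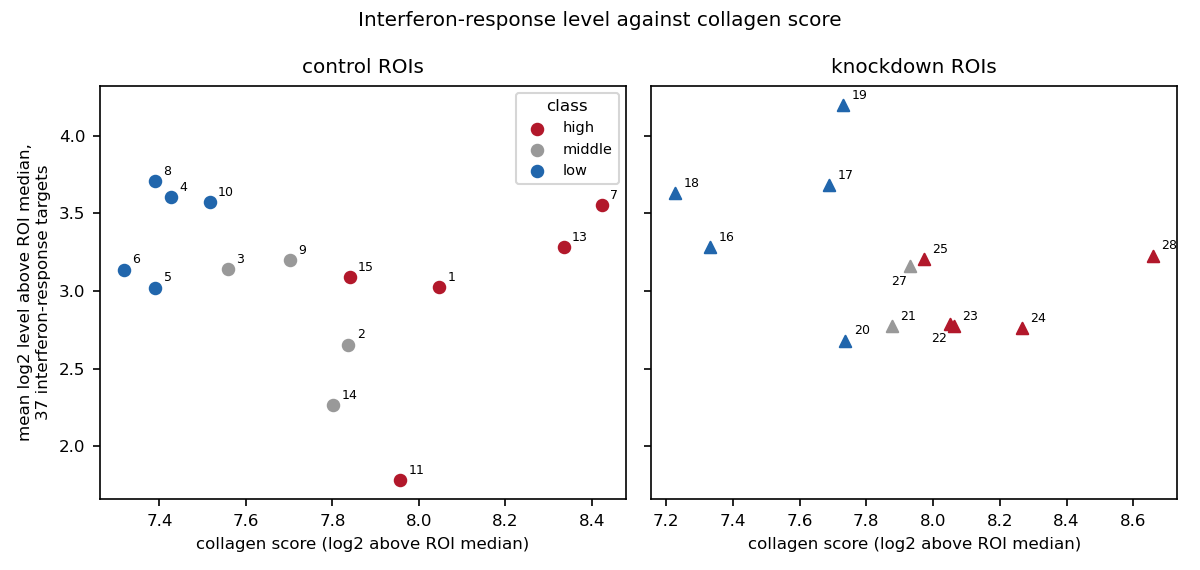
Mean level of the 37 interferon-response targets above the ROI's median target (log2) against the collagen score in each ROI, labelled by ROI number and coloured by class. Control ROI 11 lies lowest at 1.78, and knockdown ROI 20 lies at 2.68, under the other collagen-low ROIs.

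Depth and other cell types were set beside these falls. With log2 reads as a covariate, an alternative chosen after the data were seen, 33 targets rose and 0 fell, with 775 lower at an unadjusted p under 0.05. The interferon-response median was then -0.57 with all 37 members below 0. With reads of every ROI thinned to the shallowest, 28 rose and 12 fell in limma, and 47 rose and 8 fell in edgeR. The part of depth in the result was not tested further. Macrophage genes had a median of -0.02 (11 of 26 above 0) and T and NK cell genes of -0.01 (12 of 24 above 0), and none of either list passed. In the T and NK cell list, Eomes (0.34), Cd3e (0.21) and Cd8a (0.20) lay above 0. At an unadjusted p under 0.05 in limma, 2 of its members were lower and 0 higher, against 6.13% and 4.16% of all targets. Of these 2, the cytokine gene Ifng, which lay under background, had -0.52 (unadjusted p = 0.00936, adjusted p = 0.279 in limma). The granzyme gene Gzmb had -0.62 (unadjusted p = 0.0355, adjusted p = 0.436 in limma), with -0.06 in control and -1.18 in knockdown. The part of either in the interferon-response values was not tested. The summed share of reads of the T and NK cell list was 0.0256% to 0.0584% in collagen-high and 0.0255% to 0.0662% in collagen-low ROIs. That of the macrophage list was 0.158% to 0.454% and 0.141% to 0.353%.

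The promoters of 3 interferon-response genes are shown with the letters that IRF factors are known to bind, GAAA and a second GAAA with 2 bases of any kind between them, in capitals. This pair was in a window of 15 of 30 list members that had one (50.0%), against 3.91% of all targets with a window. TTCNNNGAA, the STAT core, was in 7 of 30 (23.3%, all targets 8.81%), and the AP-1 core in 8 of 30 (26.7%). These shares describe the members of the list and not the ROI classes. Of the 41 genes that rose, 4 held the GAAA pair (9.76%). Among the 6 genes with a window that fell, Cxcl10 alone held the pair. Both strands were searched, and neighbouring matches overlap in Isg15 and Bst2. Cxcl10 is at chr5:92348840-92349139 (-), Isg15 at chr4:156200769-156201068 (-) and Bst2 at chr8:71537423-71537722 (-), all in GRCm38.p6 and 5′ to 3′ on the gene's strand.
Cxcl10: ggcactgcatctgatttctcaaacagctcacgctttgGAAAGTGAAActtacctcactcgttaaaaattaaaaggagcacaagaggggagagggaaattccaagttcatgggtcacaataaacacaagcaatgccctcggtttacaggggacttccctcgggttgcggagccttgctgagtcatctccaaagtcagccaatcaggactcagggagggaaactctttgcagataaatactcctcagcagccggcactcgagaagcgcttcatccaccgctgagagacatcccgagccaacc
Isg15: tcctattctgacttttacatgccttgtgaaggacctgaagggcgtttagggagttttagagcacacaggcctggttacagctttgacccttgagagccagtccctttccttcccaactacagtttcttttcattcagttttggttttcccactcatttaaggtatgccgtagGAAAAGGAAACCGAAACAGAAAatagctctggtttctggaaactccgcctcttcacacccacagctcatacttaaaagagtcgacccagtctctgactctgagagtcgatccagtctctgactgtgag
Bst2: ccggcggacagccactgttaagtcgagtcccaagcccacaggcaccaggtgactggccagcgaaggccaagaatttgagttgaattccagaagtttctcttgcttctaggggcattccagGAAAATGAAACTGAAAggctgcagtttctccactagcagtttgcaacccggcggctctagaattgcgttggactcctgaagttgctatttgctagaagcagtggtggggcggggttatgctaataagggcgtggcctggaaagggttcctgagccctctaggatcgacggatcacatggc

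Markers of other cells in the collected area were examined next, and none passed. Over all targets, 57.4% lay below 0 and 4.16% had an unadjusted p under 0.05 with a higher level in limma. Endothelial genes had a median of 0.15, 21 of 26 lay above 0, 5 had an unadjusted p under 0.05 with a higher level, and none passed. In control their median was 0.35 and their summed share of reads was 0.121% to 0.161% in collagen-high and 0.0884% to 0.118% in collagen-low ROIs, with no overlap. In knockdown the median was 0.07 and the shares were 0.0788% to 0.160% and 0.0824% to 0.145%. The knockdown median was -0.04 without ROI 25 and was also below 0 without ROI 17, 18 or 28. Emcn, an endothelial sialomucin, was nearest with 0.49 (adjusted p = 0.0813). Hepatocyte genes had a median of -0.32 with 29 of 33 below 0, and none passed. Of these 33 genes, 20 lay above background. The hepatocyte share of reads was 0.0432% to 0.157% against 0.0417% to 0.204%, and Alb spanned -0.79 to 3.05 and 0.04 to 4.23. Hp, the hepatocyte gene with the smallest p, lay the other way at 0.83 (unadjusted p = 0.0137, adjusted p = 0.318 in limma). Its difference was 1.47 in control and 0.18 in knockdown. Tumour and biliary epithelial genes had a median of -0.08, and 8 of 21 lay above 0. The defining markers Clec4f, Cd79a, Ms4a1, S100a8, Ly6g, Lyve1, Krt18, Krt19, Epcam and Alas2 were at or under background in their mean, as was the quiescent stellate cell gene Lrat. Vim, Pdgfrb, Acta2 and Des, which mark fibroblasts and stellate cells, were above it. Markers of other cells were above it too, among them the macrophage genes Adgre1, Cd68, Csf1r and C1qa and the endothelial genes Cdh5 and Pecam1. The same held for the red blood cell gene Hba-a1, the epithelial gene Krt8 and the stellate cell genes Hgf and Colec11. C1qa and Cdh5 had a higher mean level than Des. The part of endothelial or hepatocyte RNA in the matrix rises was not tested.

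Whether collagen-high and collagen-low ROIs differed alike in both conditions was asked with an interaction term. No target passed (0 of 18852 in limma with 937 at an unadjusted p under 0.05, and 0 in edgeR with 915), so no difference between the conditions was detected at this number of ROIs. In control alone 78 targets rose (0.414%) and 1 fell (0.0053%). In knockdown alone none passed in limma, where 371 lay higher and 883 lay lower with an unadjusted p under 0.05. Of the 55 that rose, 44 had the larger difference in control, with medians of 0.77 in control and 0.53 in knockdown. For the 8 that fell the medians were -0.44 and -0.63. Mmp2 was the called matrix gene with the smallest interaction p. In control it was at 4.14, 4.68, 4.51, 4.38 and 4.52 in ROIs 1, 7, 11, 13 and 15 and at 3.43, 3.59, 2.82, 2.96 and 3.54 in ROIs 4, 5, 6, 8 and 10. In knockdown it spanned 3.47 to 3.87 in the high and 2.95 to 3.97 in the low class. The difference was 1.18 in control and 0.14 in knockdown, an interaction of -1.04 ± 0.24 (SE, adjusted p = 0.542 in limma). Egfr, the epidermal growth factor receptor gene, had 1.20 and 0.18 (adjusted p = 0.542 in limma).

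**Figure D5:**
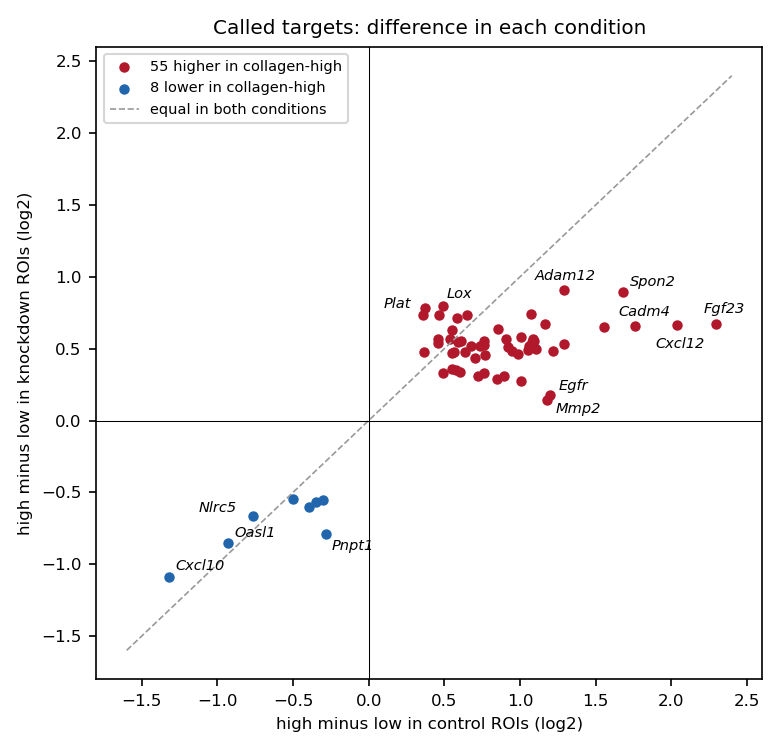
Collagen-high minus collagen-low difference (log2) of the 63 called targets in control (x) and knockdown (y), 55 higher in red and 8 lower in blue. All lie on the same side of 0 in both conditions, and 44 of the 55 red points lie under the dashed line of equal differences. The targets were called on these same ROIs with both conditions in the fit.

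The ROIs in neither class were not used in the comparison. Averaged over the 55 targets that rose, the level in control was 2.38 in the high, 1.81 in the 4 middle and 1.49 in the low ROIs. In knockdown it was 2.21, 1.96 in the 2 middle ROIs and 1.68. In control the mean of the middle ROIs lay between the classes for 53 of the 55 targets and in knockdown for 23 of 55. Averaged over the 8 that fell, the middle ROIs were at 2.01 in control, beside 2.01 in the high and 2.61 in the low class, and lay between the classes for 4 of the 8. In knockdown they were at 1.90, between 1.74 in the high and 2.45 in the low class, for 8 of the 8.

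Over 26 ROIs, with the mean of each condition removed, Col5a2 followed the score most closely (Pearson r = 0.93). After it came Sparc and Efnb1 (both 0.87), Lox, Des and Adam12 (all 0.85), Slit3 (0.84), Gpx7 (0.83), Ccdc80 (0.82) and Rcn3 (0.81), a reticulocalbin of the endoplasmic reticulum. On the opposite side were Phgdh (-0.72), Naa25 and Hsh2d (both -0.66), Qtrt1 and Rmdn3 (both -0.64). These correlations share the ROI medians and depths of the same libraries and were chosen as the most extreme of many, so they are descriptions. Efnb1, a ligand of Eph receptors, rose by 0.66 and Gpx7, an oxidase of the endoplasmic reticulum, by 0.65, both past the threshold in limma (adjusted p = 0.0154 and 0.0241).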

How the data were processed

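RNA of desmin-stained segments was measured with the GeoMx mouse whole transcriptome panel, in which probe tags released from each area are sequenced. The authors counted tags per target and deposited 1 signal value per target and ROI, with no pooling. For software version, scaling and target filter, nothing is given in the sources used here. By ROI, the 75th percentile of the deposited values was 70.3 to 72.6 in control. It was 43.9 to 45.7 in knockdown apart from ROI 26 (56.4). In the deposited signal, at least 99.98% of the values of each ROI were whole multiples of 1 read (within 0.001 reads, all but 4 targets), so each ROI was multiplied by a single factor. Reads per ROI recovered in this way cover counting error only. Whether PCR copies of a tag were removed before counting is not stated in the sources used here. All 27 columns were matched to a sample, and 0 were left unmapped.

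Values were taken as log2(value + 1) minus the ROI's median, so fold changes of low targets are understated. Python 3.11.15, pandas 2.3.3, NumPy 2.4.6, SciPy 1.17.1, R 4.3.3 and limma 3.58.1 were used. The 20 ROIs were compared with limma (trend, two-sided, condition as covariate, Benjamini-Hochberg over 18852 targets, adjusted p under 0.05), and the scripts were tested on simulated data. edgeR 4.0.16, a quasi-likelihood test on the recovered reads, called 143 targets higher and 31 lower, and DESeq2 1.42.0 was a further alternative. A target was above background when its mean over the 20 ROIs exceeded -0.50, the 95th percentile of 989 olfactory, vomeronasal and taste receptor targets, which 11250 targets did. Depth was compared by an exact permutation test over ROIs. ROIs are separate areas of metastases from 3 mice per group, not separate mice, so p-values measure the spread between areas.

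The members and gene lists were chosen with earlier results of these data known. Named were the score genes, the 15 largest rises and 15 largest falls among called targets above background (all 8 that fell), up to 4 members per list with the smallest p, the 3 most abundant of each cell type list, the 10 targets with the highest and the 5 with the lowest correlation with the score, and the 5 smallest interaction p-values. Alternatives were other pseudocounts, filters, centring, scaling, tools, weights, class sizes and scores, each condition alone, and each ROI left out in turn. Thinned reads, a depth covariate, ROI 2 in place of ROI 15 and list medians within a condition without each ROI were added after the data were seen.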

Additional observations from a re-analysis of the deposited data

Results flagged for a closer look

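In groups of 5 ROIs, the highest or lowest value was compared with the gap to its neighbour as a share of the group's range. Of 112 groups looked at, 3 had 1 ROI that stood apart beyond Dixon's limit of 0.71, and chance flags about 1 in 20 groups. All 3 were in the knockdown collagen-high class. For Spon2, a secreted spondin, ROI 25, the shallowest of the 20 ROIs, lay at -0.34 and the next value was 1.74. Without this ROI the Spon2 difference was 1.53, against 1.29 with it. For Adam12, the metalloprotease, ROI 28 lay at 3.28 above the next value of 2.29. Without it the difference was 1.01 (limma adjusted p = 0.000249), against 1.10. For Cdh11, the mesenchymal cadherin, ROI 28 lay at 3.06 above the next value of 1.53. Without it the difference was 0.67 (limma adjusted p = 0.0438), against 0.83. The cause was not tested.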

How the results depend on the processing

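The 63 targets kept their sign under every alternative run here, and 23 of them passed in all 20 fits that left out 1 ROI. Passing also under every other alternative on both conditions were 11: Cxcl12, Spon2, Cadm4, Adam12, Sfrp1, Slit3, Phldb2, Ccdc80, Col5a2, Lox and Loxl1. The counts were less stable than the directions, but the alternatives reuse ROIs on which the 63 were called, so the kept directions are no separate support. Against 55 higher and 8 lower, there were 97 and 22 with values as deposited, 96 and 22 centred on the 75th percentile, 98 and 15 scaled by TMM, 143 and 31 in edgeR, 224 and 46 in DESeq2 and 239 and 97 with array weights. Values as deposited and centring on the 75th percentile are nearly the same scaling, because the deposited 75th percentiles were about equal within each condition. The slope on the score gave 112 higher, the score from Col1a2 and Col3a1 gave 90 and 13, and the score from deposited values 17 lower. A pseudocount of 5 gave 14 lower, and targets above background alone 24 lower. Control alone gave 1 lower, and knockdown alone 0 higher and 0 lower. Reads thinned to 1 total gave 28 higher, and log2 reads as covariate 33 higher and 0 lower. Both were chosen after the data were seen. The cause of these shifts was not tested, except that 1 condition alone has 10 ROIs.

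Leaving out 1 ROI gave 24 to 93 higher and 1 to 25 lower targets. Higher and lower counts were 24 and 1 without control ROI 13, 25 and 1 without 8, 26 and 2 without 6, 33 and 3 without 15, 40 and 5 without 1, 49 and 4 without 10, 63 and 14 without 7 and 79 and 18 without 5. They were 36 and 7 without knockdown ROI 28, 37 and 1 without 17, 38 and 3 without 18, 54 and 2 without 23, 55 and 3 without 19, 66 and 18 without 24, 93 and 25 without 20 and 93 and 10 without 25. The difference in log2 reads ranged from -0.79 to -0.49. The interaction gave 0 calls in limma, in edgeR (915 at an unadjusted p under 0.05), on values as deposited (912) and without each ROI in turn (804 to 1111). No paired analysis was possible because the ROI numbers of the conditions do not overlap and no label ties an ROI to a mouse.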

Other observations

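Genes of general cell activity were measured in the same 20 ROIs, and none of them passed the limma test. Of 63 cytosolic ribosome genes 57 lay below 0 (median -0.08), against 57.4% of all targets, and 4 had an unadjusted p under 0.05, all lower, near the 6.13% over all targets. Their summed share of reads was 6.10% to 8.18% in collagen-high and 6.69% to 8.10% in collagen-low ROIs. Of 20 glycolysis genes 15 lay below 0 (median -0.18), led by the lactate transporter gene Slc16a1 at -0.45 (limma adjusted p = 0.109) and the hexokinase gene Hk2 at -0.37 (adjusted p = 0.334). Of 21 hypoxia genes 15 lay below 0 (median -0.07), while 36 proliferation genes had a median of 0.02. These medians stand beside -0.03 over all targets.

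The 10 genes of MHC class II, which presents antigen to helper T cells, had a median of -0.46 in control and 0.07 in knockdown. That difference was not tested for the list, and no gene passed the interaction test. H2-DMa, which loads peptides onto class II, was nearest to the threshold over both conditions at -0.35 (limma adjusted p = 0.469). Lbp, which encodes the lipopolysaccharide-binding protein, had the smallest interaction p among targets above background, with 1.26 in control and -0.71 in knockdown (adjusted p = 0.542). Wt1, a transcription factor of mesothelial cells that stellate cells can also express, had 0.61 and an adjusted p of 0.0518. ROI 26, which was left out for its depth, had a score of 7.97.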
